A study of Homo sapiens with 4 samples.

Results

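The genes described here are 40 interferon-stimulated and antigen presentation genes, out of 60612 genes in the count table. They were chosen by name, as RNA sensors, antiviral effectors, interferon-induced genes of less settled function, interferon-responsive transcription factors and parts of the major histocompatibility complex (MHC) class I pathway, and all 40 symbols were found. Interferons are secreted proteins that bind receptors on the cell surface and act through JAK kinases. These kinases phosphorylate STAT proteins, among them STAT2, which acts with IRF9 at the interferon-stimulated response element (ISRE). Class I molecules, made of an HLA heavy chain and B2M, carry peptides loaded through TAP transporters to the cell surface, and neuroblastoma cells are known for low class I levels. The question asked was how the level of these genes changed after NeuroD1 was depleted.

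RNA sequencing (RNAseq) covered 4 libraries made from IMR-32, a human neuroblastoma line with amplified MYCN, a single line and therefore a single genetic background. Both groups carried a doxycycline-inducible short hairpin RNA (shRNA) and received doxycycline at 1 µg/mL for 48 h. The shControl group (2 libraries) carried a control hairpin, called wild type in the genotype label, and the shNeuroD1 group (2 libraries) a hairpin against NeuroD1. The final numbers in the shNeuroD1 titles also serve as names of NeuroD1 hairpins in the study, while its column names place both libraries under a single hairpin. The numbers were read here as replicate numbers, and by the labels alone different hairpins and replicates cannot be told apart. Whether the libraries of a group came from separate cultures is not in the labels, so p-values measure the spread between these libraries only, which may be technical.

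Libraries held 14665210 to 16482463 counts. NEUROD1, the neurogenic transcription factor that was targeted, had 6174 and 6582 counts in the control libraries and 969 and 886 after NeuroD1 depletion. It fell to 14.6% of control (log2 fold change −2.77, SE 0.0504, edgeR quasi-likelihood test, adjusted p = 8.6e-29). Of 9 neuroblastoma markers, 7 had a mean of at least 100 counts. The 8 leukocyte markers summed to 9 to 15 counts per library, with 3 to 4 of them at 0 in each. The 5 fibroblast markers summed to 534 to 782 counts, led by COL1A1, and 4 endothelial markers to 21 to 28 counts. Of the fibroblast markers 1 was called lower, COL1A1 with 513 and 591 counts against 291 and 279, and 2 higher, PDGFRB with 129 and 173 against 249 and 218 and LUM with 14 and 10 against 37 and 37. Of the endothelial markers CDH5 was lower, with 18 and 17 counts against 1 and 0, and VWF higher, with 7 and 5 against 23 and 20, while PECAM1 had at most 1. LUM and VWF reached the limit for testing (given below) in both libraries of shNeuroD1 only, and CDH5 in shControl only. A difference was thus built into the entry of these markers. The part of all the markers in the results that follow was not tested.

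Most of the 40 genes were barely expressed. With classes set on the mean raw count over the 4 libraries, 5 genes were abundant (at least 100 counts), 12 were low (10 to under 100) and 23 were barely expressed (under 10). Over all 60612 genes, 11537 were abundant, 5597 low and 43478 barely expressed. The abundant genes were B2M, IFI44, STAT2, IFIT5 and PARP9. These 5 held 94.7% and 94% of all counts of the 40 genes in the shControl libraries, and 89.6% in each shNeuroD1 library. Because levels came from bulk RNA, fewer cells expressing a gene and less RNA per cell cannot be told apart.

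**Figure D1:**
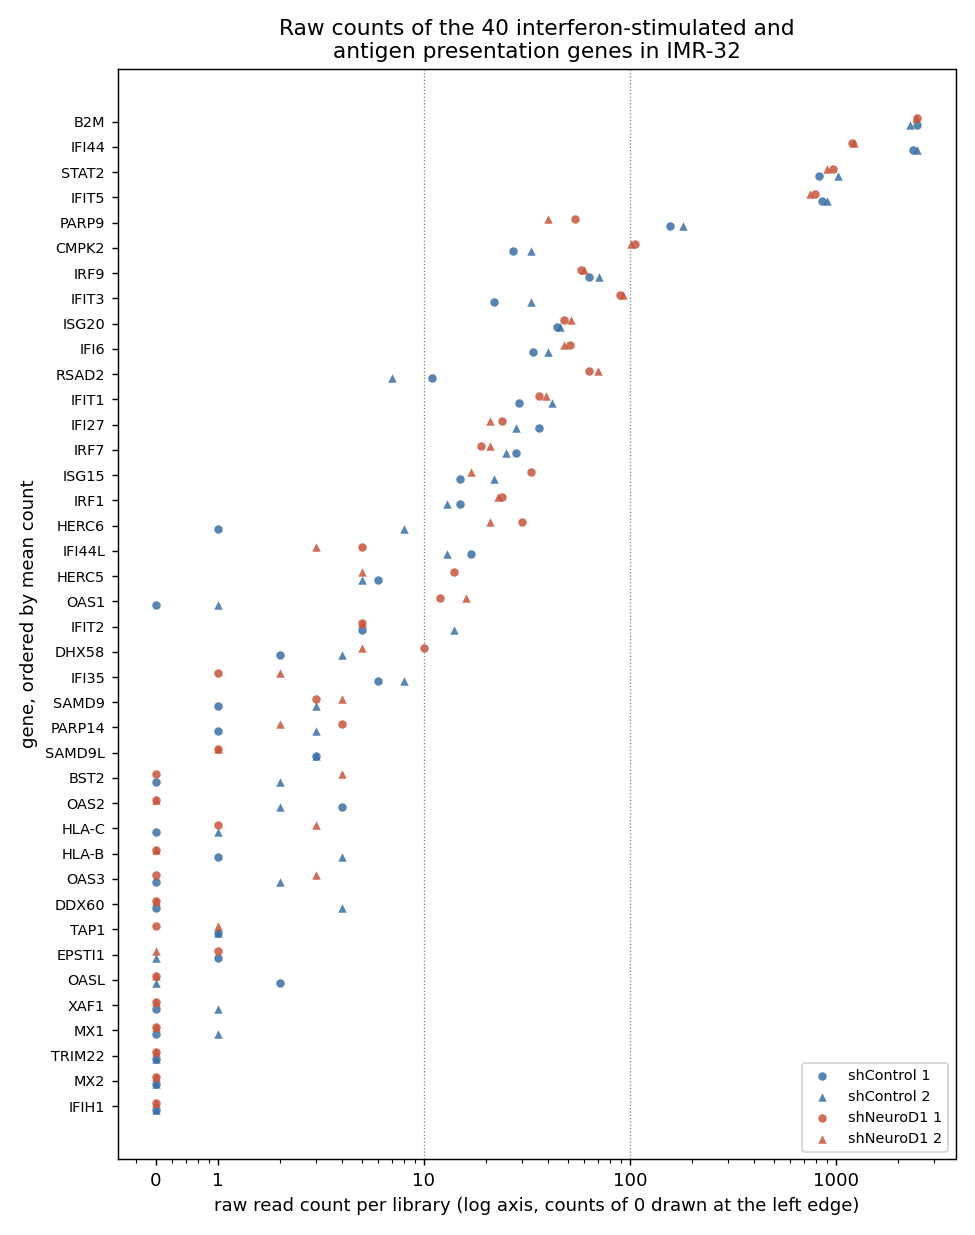
Raw read count (log axis, counts of 0 placed at the left edge) of each of the 40 genes in the 2 shControl (blue) and 2 shNeuroD1 (red) libraries, ordered by mean count. Dotted lines mark 10 and 100 counts, and only 5 genes have a mean above the second line.

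A gene was tested where it reached 0.665 CPM (the count scaled to library size) in at least 2 libraries, which kept 17537 of all genes and 19 of the 40. Of these 19, 4 were called lower in shNeuroD1 (IFI44, IFI44L, PARP9, IFIT5), 5 were called higher (IFIT3, RSAD2, CMPK2, HERC6, OAS1) and 10 were not called, at an edgeR adjusted p under 0.05. Genes called lower numbered 2 with DESeq2, without shControl 1 or without shNeuroD1 2. Among all genes tested, 28.2% were called lower and 26.8% higher. With library size alone in place of TMM scaling, that split over all genes moved from 4939 lower and 4698 higher to 3639 lower and 6114 higher, and the median of all genes moved by 0.12 on the log2 scale. With a further limit of 1 on the size of the log2 fold change, 2 of the genes were lower (PARP9, IFI44L) and the same 5 higher, against 5.14% and 8.79% of all genes tested.

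Neither share of the 19 stands for all 40, since 4 tested genes reached the limit in both libraries of 1 group only. OAS1, RSAD2 and HERC6 reached it in shNeuroD1, and IFI44L in shControl, so a difference was built into their entry. The median log2 fold change of the 19 genes was 0.09, beside 0.01 for all genes tested, with single genes running from −1.87 to 4.51. Among the 35 genes under 100 counts, 14 were tested, of which 1 was lower and 5 higher. Of all tested genes under 100 counts, 10.2% were lower and 26.5% higher.

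**Figure D2:**
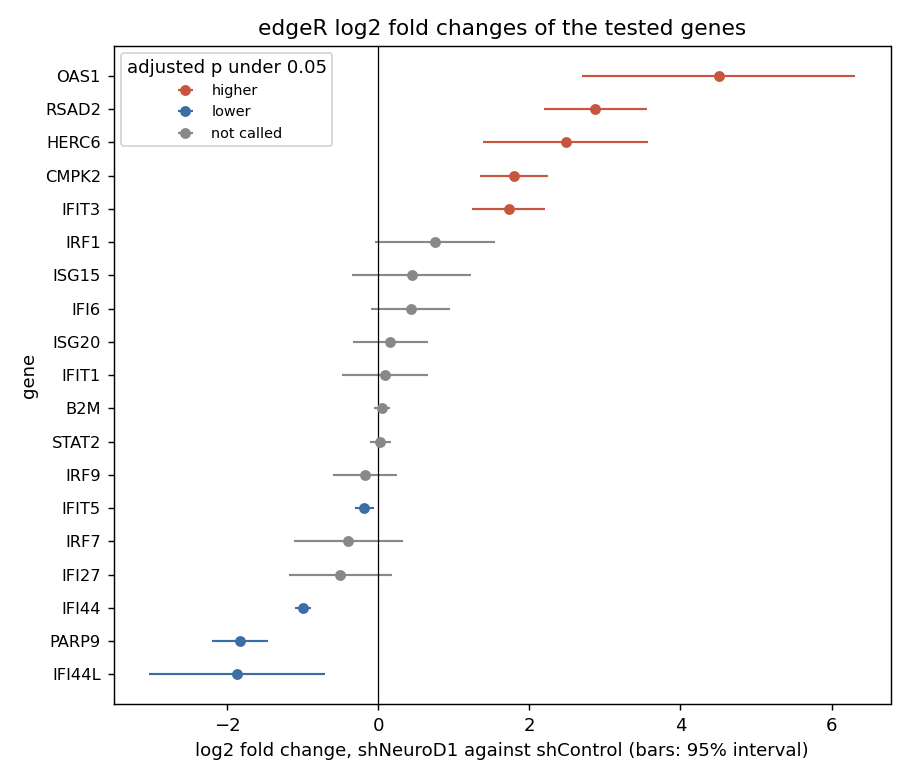
Log2 fold change in shNeuroD1 against shControl from edgeR for the 19 tested genes, with 95% intervals. The 5 genes called higher lie to the right (red), the 4 called lower to the left (blue), and 10 genes have intervals that include 0 (grey).

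The promoter sequences of 6 genes are shown so that genes called lower or higher stand beside one that did not pass the test. They are the IFI44 and IFI44L neighbours, PARP9, RSAD2 and IFIT3, and B2M. Each window runs from 250 bases before to 50 bases after a RefSeq transcript start (GRCh38.p14), 5′ to 3′ on the gene's strand. Capitals mark the ISRE core on either strand, which is GAAA, any 2 bases and GAAA again, or its reverse complement. The windows are chr1:78649539-78649838 (plus strand) for IFI44, chr1:78620198-78620497 (plus) for IFI44L, chr3:122564251-122564550 (minus) for PARP9, chr2:6877527-6877826 (plus) for RSAD2, chr10:89327747-89328046 (plus) for IFIT3 and chr15:44711267-44711566 (plus) for B2M.
IFI44: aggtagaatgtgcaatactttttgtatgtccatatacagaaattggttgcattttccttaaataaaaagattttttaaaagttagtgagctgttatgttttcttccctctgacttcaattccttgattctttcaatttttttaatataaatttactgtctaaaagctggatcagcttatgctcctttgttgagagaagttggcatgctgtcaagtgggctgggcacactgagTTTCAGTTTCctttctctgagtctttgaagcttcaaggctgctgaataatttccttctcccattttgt
IFI44L: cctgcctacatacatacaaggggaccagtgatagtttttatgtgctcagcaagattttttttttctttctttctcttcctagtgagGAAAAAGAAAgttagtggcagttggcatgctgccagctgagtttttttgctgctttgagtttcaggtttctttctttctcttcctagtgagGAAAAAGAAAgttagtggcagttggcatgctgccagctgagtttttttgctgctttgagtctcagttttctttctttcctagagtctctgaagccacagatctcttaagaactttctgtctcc
PARP9: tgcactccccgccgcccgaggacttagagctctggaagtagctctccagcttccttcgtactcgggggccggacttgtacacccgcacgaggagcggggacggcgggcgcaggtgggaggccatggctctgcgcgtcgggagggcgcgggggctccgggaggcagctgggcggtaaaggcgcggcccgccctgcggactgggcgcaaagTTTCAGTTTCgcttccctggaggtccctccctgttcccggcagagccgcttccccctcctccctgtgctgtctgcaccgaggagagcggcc
RSAD2: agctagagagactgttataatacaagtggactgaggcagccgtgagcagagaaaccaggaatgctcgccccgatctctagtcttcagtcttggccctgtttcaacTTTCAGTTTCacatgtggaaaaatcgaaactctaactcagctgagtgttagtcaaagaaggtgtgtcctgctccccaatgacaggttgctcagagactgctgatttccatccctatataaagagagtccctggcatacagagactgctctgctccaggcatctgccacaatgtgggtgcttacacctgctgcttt
IFIT3: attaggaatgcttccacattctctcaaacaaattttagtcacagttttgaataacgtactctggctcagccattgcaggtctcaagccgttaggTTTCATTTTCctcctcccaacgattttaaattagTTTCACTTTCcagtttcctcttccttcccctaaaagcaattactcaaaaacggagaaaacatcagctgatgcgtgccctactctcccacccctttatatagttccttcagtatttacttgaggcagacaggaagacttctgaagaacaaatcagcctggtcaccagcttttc
B2M: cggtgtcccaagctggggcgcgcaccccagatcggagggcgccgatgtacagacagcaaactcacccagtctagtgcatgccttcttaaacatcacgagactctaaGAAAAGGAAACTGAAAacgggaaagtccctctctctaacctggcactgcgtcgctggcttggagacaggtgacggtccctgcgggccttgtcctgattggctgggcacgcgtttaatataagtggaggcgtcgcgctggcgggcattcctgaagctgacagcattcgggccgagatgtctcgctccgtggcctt
The IFI44L window holds the same match at −164 and −73 from the start, and the B2M window holds overlapping matches at −144 and −138. IFIT3 has matches at −156 and −122, RSAD2 at −145, PARP9 at −41 and IFI44 at −18. Single matches thus occur in these windows both in a gene called higher (RSAD2) and in genes called lower (PARP9, IFI44). Where a gene had several windows, 1 was picked to be shown. RSAD2 and PARP9 have 2 windows each, and the window not shown held no match.

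RefSeq windows were found for 33 of the 40 genes, and not for IRF7, MX2, DHX58, TRIM22, OAS2, IFIT2 and OASL. The ISRE core occurred on either strand in 22 of them (66.7%), against 4.38% of 27305 genes with a window. The genes were chosen by name as interferon-stimulated, and the windows are reference sequence, so this excess is no result of these libraries. The letters CAGATG or CAGCTG, E-boxes of the kind that NeuroD1 can bind, occurred in 14 of the 33 (42.4%) and in 34.1% of all genes. Of the 5 genes called higher, RSAD2 (in 1 of its 2 windows) and IFIT3 had an ISRE match. The windows of CMPK2, OAS1 and HERC6 had none. All 4 genes called lower had at least 1 match, PARP9 in 1 of its 2 windows. A match is a run of letters and not a measured binding site.

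**Figure D3:**
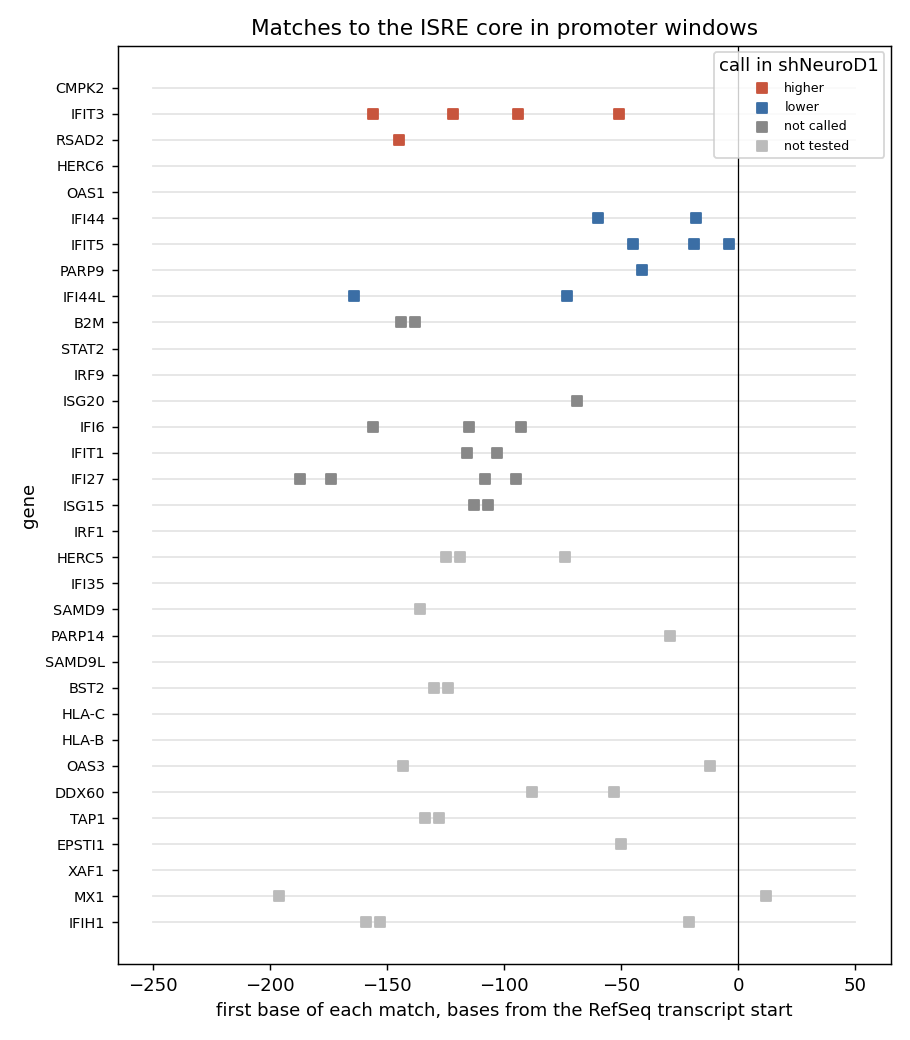
Position of each ISRE core match (squares, first base of the match in bases from the RefSeq transcript start) in the promoter windows of 33 genes, coloured by the call in shNeuroD1. Matches from several windows of a gene share a line, and matches occur among genes called higher, called lower, not called and not tested.

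The 3 RNA sensor genes of the set were near or at 0. Outside the set, RIGI, the sensor RIG-I, had 61 and 67 counts against 48 and 60 (adjusted p = 0.381), and EIF2AK2, the kinase PKR, had 1621 and 1815 against 2184 and 2264 and was called higher (log2 fold change 0.38, edgeR adjusted p = 6.3e-08). IFIH1, which encodes the double-stranded RNA sensor MDA5, had 0 counts in all 4 libraries. DDX60, a helicase linked to RNA sensing, had 4 counts in shControl 2 and 0 in the others. DHX58, which encodes the regulator LGP2, had 2 and 4 counts in the control libraries and 10 and 5 after NeuroD1 depletion, below the level tested. Counts of 0 allow up to 0.189 to 0.204 CPM (3 counts) depending on the library, an allowance that covers counting error only.

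The IFIT genes, whose proteins bind viral RNA, lie in 1 cluster on chromosome 10 and took different values. IFIT5 (chr10:89414586-89421001) was the abundant one, with 855 and 904 counts in the control libraries and 790 and 750 after NeuroD1 depletion. This gave 57.5 ± 0.763 CPM (SD, n = 2) for shControl and 50.6 ± 1.89 for shNeuroD1, with no overlap between the groups. The edgeR log2 fold change was −0.18 (SE 0.0639, adjusted p = 0.0154). This call was lost with library size alone (−0.07, adjusted p = 0.354), with DESeq2 (adjusted p = 0.146) and on leaving out shControl 1, shControl 2 or shNeuroD1 2.

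IFIT3 (chr10:89327894-89340971), which partners IFIT1 on RNA, had 22 and 33 counts in the control libraries and 89 and 92 after NeuroD1 depletion. Both shNeuroD1 libraries lay above both shControl libraries, with means of 1.79 ± 0.414 and 5.95 ± 0.135 CPM. The log2 fold change came to 1.72 (SE 0.238, edgeR adjusted p = 2.4e-07). IFIT1 had 29 and 42 counts in the control libraries and 36 and 39 after NeuroD1 depletion, so the groups overlapped (log2 fold change 0.09, 95% interval −0.48 to 0.66, adjusted p = 0.81). IFIT2 had 5 and 14 counts in shControl and 5 in each shNeuroD1 library and was not tested. Its exons overlap those of LIPA on the other strand.

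The OAS genes encode enzymes that make 2′-5′ oligoadenylates, signals of the antiviral response. OAS1 had 0 and 1 counts in the control libraries and 12 and 16 after NeuroD1 depletion. The groups did not overlap, and the summed counts of 1 and 28 gave a ratio of 28.2 after scaling, with a 95% counting interval of 4.66 to 1150. The edgeR log2 fold change came to 4.51 (SE 0.886, adjusted p = 6.3e-05), a size that rests on 1 count in shControl. OAS1 exons overlap an antisense gene, AC004551.1, and the use of strand in counting is not stated. OAS2 had 4 and 2 counts in shControl and 0 in shNeuroD1, OAS3 0 and 2 against 0 and 3, and OASL 2 and 0 against 0. None of these 3 was tested. The groups did not overlap in OAS2 and overlapped in the other two.

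RSAD2 and CMPK2 lie head to head on chromosome 2, in opposite directions, and both were higher. RSAD2 encodes viperin, which makes a chain-terminating ribonucleotide, and CMPK2 a mitochondrial nucleotide kinase that supplies its substrate. RSAD2 (chr2:6865806-6898239) had 11 and 7 counts in the control libraries and 63 and 70 after NeuroD1 depletion. Both shNeuroD1 libraries lay above both controls, at 4.37 ± 0.322 CPM against 0.594 ± 0.216. Its log2 fold change came to 2.88 (SE 0.334, edgeR adjusted p = 8.6e-09), and the ratio of summed counts was 7.43 (95% counting interval 4.53 to 12.9).

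CMPK2 (chr2:6840570-6866635) had 27 and 33 counts in the control libraries and 106 and 101 after NeuroD1 depletion. Again the groups did not overlap, with 1.96 ± 0.174 CPM against 6.8 ± 0.237. The log2 fold change came to 1.79 (SE 0.221, edgeR adjusted p = 2.8e-08). The annotated spans of the 2 genes share 830 bases and some exon sequence, so without strand the reads of that stretch cannot be given to one gene or the other. A RefSeq window of RSAD2 at its outer start and a window of CMPK2 share 165 bases.

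The other antiviral effectors were low or near 0. ISG20, an exonuclease, had 44 and 46 counts in the control libraries and 48 and 52 after NeuroD1 depletion, with groups apart but an interval that spans 0 (log2 fold change 0.16, 95% interval −0.34 to 0.66, adjusted p = 0.605). MX1, a GTPase that blocks viral replication, had 1 count in shControl 2 and 0 elsewhere, and MX2 and TRIM22 had 0 in all 4 libraries. BST2, the tether of budding virions, reached 4 counts at most, as did SAMD9 and SAMD9L. XAF1 had 1 count in all. None of these 7 genes was tested.

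ISG15 is a ubiquitin-like protein, and HERC5 is its main ligase in human cells. ISG15 had 15 and 22 counts in the control libraries and 33 and 17 after NeuroD1 depletion, and the groups overlapped (log2 fold change 0.44, 95% interval −0.35 to 1.23, adjusted p = 0.348). HERC5 had 6 and 5 against 14 and 5 and was not tested. HERC6, a relative of HERC5, had 1 and 8 counts in the control libraries and 30 and 21 after NeuroD1 depletion. The groups did not overlap, and the log2 fold change came to 2.48 (SE 0.536, edgeR adjusted p = 0.00021), or a ratio of summed counts of 5.7 (95% counting interval 2.78 to 13.2). Without shControl 1 the adjusted p was 0.0542 and the log2 fold change 1.72.

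PARP9, an ADP-ribosyltransferase family member that works in a complex with the ubiquitin ligase DTX3L, was lower. It had 156 and 180 counts in the control libraries and 54 and 40 after NeuroD1 depletion, so the groups lay well apart (11 ± 0.531 and 3.09 ± 0.653 CPM). The level was 28.2% of control (log2 fold change −1.83, SE 0.183, edgeR adjusted p = 3.5e-10). PARP9 (chr3:122527924-122564577) shares 340 bases with DTX3L, which runs in the opposite direction. DTX3L had 176 and 196 counts in the control libraries and 188 and 173 after NeuroD1 depletion. Its groups overlapped (log2 fold change −0.03, 95% interval −0.30 to 0.23, adjusted p = 0.841). The interval of PARP9, −2.20 to −1.45, lies apart from that of DTX3L, and the difference between the 2 genes was not tested. PARP14, another family member, had 1 to 4 counts in every library.

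IFI44 and IFI44L are paralogs of less settled function that stand side by side on chromosome 1, with 3650 bases between them. IFI44 (chr1:78649796-78664078) had 2361 and 2485 counts in the control libraries and 1193 and 1219 after NeuroD1 depletion, a halving. The level went from 158.3 ± 2.61 to 79.2 ± 1.15 CPM, 50.04% of control, with no overlap. The edgeR log2 fold change was −0.998 (SE 0.0504, adjusted p = 2.2e-17). On FPKM of transcript starts with limma and a pseudocount of 0.1, the same gene gave −1.56 and missed the threshold (adjusted p = 0.0528). Per kilobase of all annotated exon and scaled to library size (RPKM), the level of IFI44 was 77.7 in shControl and 38.9 in shNeuroD1, against 25.7 and 26.5 for B2M, whose exons cover 6079 bases to the 2038 of IFI44. The summed FPKM of transcript starts, which are scaled to the length of assembled transcripts, were 51.9 and 48.4 for IFI44 in shControl and 15.0 and 19.1 in shNeuroD1. For B2M they were 55.6 and 37.9, and 76.3 and 74.5. The order of the 2 genes thus differed between these scales.

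IFI44L (chr1:78619922-78646145) had 17 and 13 counts in the control libraries and 5 and 3 after NeuroD1 depletion, with no overlap. Its log2 fold change came to −1.87 (SE 0.572, edgeR adjusted p = 0.00626), and the ratio of summed counts was 0.268 (95% counting interval 0.106 to 0.599). The adjusted p was 0.135 with DESeq2, 0.059 without shControl 1 and 0.0867 without shNeuroD1 2. Its level in shControl, 0.986 CPM, set it far below IFI44 in the same libraries. As the 2 genes are paralogs, reads of shared sequence could be counted for either.

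**Figure D4:**
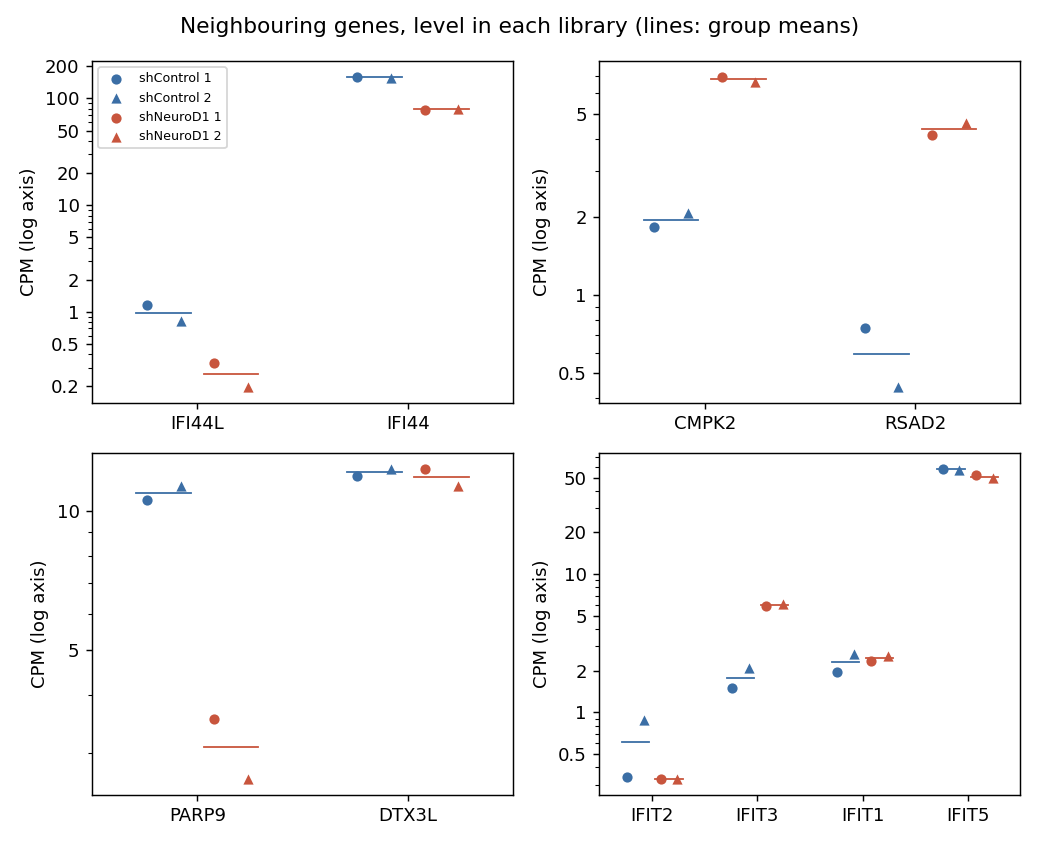
CPM (log axis) of neighbouring genes in each library, with lines at the group means, for IFI44L and IFI44, CMPK2 and RSAD2, PARP9 and DTX3L, and the 4 IFIT genes. RSAD2 and CMPK2 are both higher in shNeuroD1, IFI44 and IFI44L both lower, PARP9 is lower beside DTX3L, whose groups overlap, and of the IFIT genes IFIT3 is higher and IFIT5 lower.

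The other interferon-induced genes gave no call. IFI6, a mitochondrial and endoplasmic reticulum protein, had 34 and 40 counts in the control libraries and 51 and 48 after NeuroD1 depletion (log2 fold change 0.43, 95% interval −0.09 to 0.95, adjusted p = 0.159). IFI27 had 36 and 28 against 24 and 21 (−0.50, −1.18 to 0.18, adjusted p = 0.21). In both genes the groups did not overlap, yet the interval allows a change of over 1 in IFI27 and of close to it in IFI6. IFI35 had 6 and 8 counts in the control libraries and 1 and 2 after NeuroD1 depletion, and EPSTI1 had at most 1, and neither was tested.

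Of the transcription factors, none was called. STAT2, the interferon-specific signal transducer, had 824 and 1027 counts in the control libraries and 967 and 909 after NeuroD1 depletion. The groups overlapped, and the log2 fold change was 0.03 with a 95% interval of −0.11 to 0.17 (edgeR adjusted p = 0.732). IRF9, the DNA-binding partner of STAT2, had 63 and 71 against 58 and 60 (−0.17, −0.60 to 0.25, adjusted p = 0.504). IRF7, the amplifier of interferon production, had 28 and 25 against 19 and 21 (−0.40, −1.12 to 0.33, adjusted p = 0.358). IRF1, an activator of class I genes, had 15 and 13 against 24 and 23 (0.75, −0.05 to 1.55, adjusted p = 0.105). Its exons overlap those of C5orf56 on the other strand, so without strand part of its reads cannot be assigned. Exon overlap with another annotated gene was also found for IRF9 (AL136295.5), ISG15 (AL645608.3) and TAP1 (PSMB8-AS1).

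Of the class I pathway, B2M was abundant and its partners were not. B2M (chr15:44711487-44718877) had 2472 and 2293 counts in the control libraries and 2470 and 2440 after NeuroD1 depletion. The shControl libraries, at 167.7 and 144.4 CPM, spanned both shNeuroD1 libraries at 162.4 and 160.2. The log2 fold change was 0.05 (95% interval −0.06 to 0.16, edgeR adjusted p = 0.456). It passed with library size alone (0.16, adjusted p = 0.00996) and on leaving out shControl 1 (0.16, adjusted p = 0.033). The HLA heavy chain genes HLA-B and HLA-C had 1 and 4, and 0 and 1, counts in shControl, and 0 and 0, and 1 and 3, in shNeuroD1. TAP1, a subunit of the peptide transporter, had 1 count in 3 libraries and 0 in shNeuroD1 1.

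HLA genes are similar in sequence, so counts of one can hold reads of another. Exons of HLA-B and HLA-C also overlap on the same strand. Reads of that stretch, or reads matching several HLA genes, may have been left out of the counts, which was not tested. Within the MHC region as annotated on chromosome 6 (chr6:29722775-33314387), 125 protein-coding genes were not class I, class II or processing genes. Of these, 65 had a mean of at least 100 counts in the same libraries.

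A further 77 genes of the pathway were examined beside the 40. None of the 21 interferon ligand genes was tested, 20 of them had 0 counts in all libraries, and IFNL3 had 1 count in 1 shNeuroD1 library. Of 15 receptor and signalling genes, 12 were tested, with 3 lower and 3 higher. SOCS3, a feedback inhibitor of JAK kinases, had 2 and 4 counts in the control libraries and 14 and 12 after NeuroD1 depletion (log2 fold change 2.08, edgeR adjusted p = 0.0052). It reached the limit of 0.665 CPM in shNeuroD1 only, so a difference was built into its entry. IFNGR1, a chain of the type II receptor, fell to 69.5% of control (−0.52, adjusted p = 1.8e-06).

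Of 18 nucleic acid sensing genes, 11 were tested, with 2 lower and 5 higher. MYD88, the Toll-like receptor adaptor, had 143 and 154 counts in the control libraries and 24 and 39 after NeuroD1 depletion and fell to 21.3% of control (log2 fold change −2.22, edgeR adjusted p = 9.8e-11). Of 16 class I processing genes, 12 were tested, with 2 lower and 3 higher. ERAP2, a peptide-trimming enzyme, had 3 and 8 counts against 15 and 15 (1.44, adjusted p = 0.024). Like SOCS3, ERAP2 reached the limit for testing in shNeuroD1 only, and both are among the genes called higher. Of 7 class II genes, 3 were tested and HLA-DMA was higher, with 13 and 16 against 36 and 25 (1.08, adjusted p = 0.015). Over all 77 genes, 38 were tested, with 7 lower and 12 higher (6 higher without shControl 1, without shNeuroD1 1 or by DESeq2), against 28.2% and 26.8% of all genes tested.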

How the data were processed

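A table of raw counts, 60612 Ensembl genes by 4 libraries, was deposited by the authors. The submitters' processing notes name cutadapt 1.9.1, HISAT2 2.0.1, HTSeq 0.6.1, DESeq2 and hg38, and strand use in counting was not given in the sources used here. The authors also deposited FPKM values of transcript starts and ends and splicing events per library, whose assembler was likewise not given. These list only events above 0.

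The main test used edgeR 4.0.16 in R 4.3.3. After filterByExpr with a minimum count of 10, libraries were scaled by TMM and compared by the quasi-likelihood test, two-sided, with Benjamini-Hochberg adjustment over 17537 genes. A gene was called at an adjusted p under 0.05. Standard errors are the size of the fold change divided by the square root of F. Intervals on ratios of summed counts are exact conditional intervals. The pipeline was tested on simulated data with 200 changed genes. DESeq2 1.42.0 and limma 3.58.1, the latter on log2(FPKM + 1) and log2(FPKM + 0.1) of summed transcript starts, were alternatives. Gene coordinates and exon lengths were taken from GENCODE 29. The genes named are NEUROD1, each tested member, untested members by raw count, pathway genes called beyond a log2 fold change of 1, and genes overlapping a member. IFNGR1, RIGI and EIF2AK2 were added after their values were seen. Some genes that the rule names are not reported here. The 40 genes and the other lists were chosen with earlier results of these data known.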

Additional observations from a re-analysis of the deposited data

Results flagged for a closer look

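In the FPKM tables of transcript starts, which the count comparisons do not use, 2 of the genes had a start at 0.5 FPKM or more in both shNeuroD1 libraries and at least 5 times above the higher shControl library. For CMPK2, a start on the minus strand at chr2:6866426-6866635 was listed at no value in shControl 1 (counted as 0) and at 0.0989 FPKM in shControl 2, and at 0.633 and 1.40 FPKM in shNeuroD1. For STAT2, a start on the minus strand at chr12:56356132-56356219 was at 0 and 0.0154 FPKM in shControl and at 1.14 FPKM in both shNeuroD1 libraries. The count of STAT2 did not pass the test (log2 fold change 0.03), while that of CMPK2 was called higher (1.79). A start of OAS1 lay below that minimum, at 0 in both shControl libraries and at 0.156 and 0.242 FPKM in shNeuroD1. Summed over starts, the groups overlapped in the other genes called higher. IFIT3 had 0.185 and 0.470 FPKM in shControl and 0.831 and 0 in shNeuroD1. RSAD2 had 0 and 0.414 against 0.511 and 0.213, and HERC6 0 and 0 against 0.538 and 0. IFIT1, not called by counts, had 0.444 and 0.446 against 0.111 and 0.112. These values have no test.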

How the results depend on the processing

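NEUROD1 kept its direction and call, with −2.84 to −2.71 when 1 library was left out. Genes called lower numbered 4, with 2 by DESeq2, 2 with a log2 fold change beyond 1, 1 and 0 by limma on log2(FPKM + 1) and log2(FPKM + 0.1), and 2 to 4 without 1 library (2 without shControl 1 or shNeuroD1 2). Genes called higher numbered 5, with 3 at a mean of at least 1 CPM, 0 by either limma fit and 5 without any 1 library, although without shControl 1 HERC6 was lost and B2M gained. The limma fits covered 7 of the genes and 10083 genes in all. None of the 5 genes called higher was among these 7, so their 0 by limma was set by the FPKM filter. PARP9 and IFI44L, called lower, were not fitted by limma either. Likewise the limit of 1 CPM left out OAS1, HERC6 and IFI44L. Pathway genes outside the 40 called lower numbered 7 (4 with library size alone, 0 and 0 by limma, 5 to 6 without 1 library) and higher 12 (6 by DESeq2, 0 and 0 by limma, 6 to 10 without 1 library). The median of 0.09 was 0.20 with library size alone, 0.015 without a filter, 0.0164 by DESeq2, 0.52 and 0.65 by limma, and 0.0367 to 0.16 without 1 library. When 1 library was left out, the direction turned for IFIT1 (−0.10 to 0.32, lowest without shControl 1), ISG15 (−0.11 to 0.84, lowest without shNeuroD1 1), STAT2 (−0.0696 to 0.14, lowest without shControl 1, and −0.02 without shNeuroD1 1), B2M (−0.0562 to 0.16, lowest without shControl 2). By limma it turned for IRF9 (0.57 and 0.66). No gene was called on the turned side. The FPKM summed for IRF9 included starts ahead of its annotated span (chr14:24161053-24166565). The start at chr14:24147498-24147890 had 3.99 and 0.752 FPKM in shControl and 1.52 and 6.42 in shNeuroD1. The start at chr14:24161265-24161338, inside the span, had 0.202 and 0.266 against 0.572 and 0.251. The limma values of IRF9 thus do not stand for IRF9 alone. The call of IFI44 was lost by limma on log2(FPKM + 0.1), at −1.56 and adjusted p = 0.0528. The cause of these changes was not tested. With 1 library left out, the lone library of its group is assumed to vary like the other group.

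Deviations of libraries with the same number correlated at 0.0155, in tested genes with a mean of at least 100 counts. Whether the numbers pair the libraries is not in the labels, and with 2 libraries per group this value cannot settle it. A fit with the replicate block gave 4 lower and 5 higher, 7 and 12 pathway genes, a median of 0.10 and NEUROD1 at −2.77, and changed the call of none of the 19 tested genes. Genes under 3 counts in every library were not tested at this depth.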
